A study of Mus musculus with 12 samples.

Results

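Secreted antagonists of Wnt signalling, together with Axin2 and Lef1 as target genes of the pathway, were followed in the skeleton of E16.5 WT and S1Pcko mouse embryos. The 10 genes were fixed by name as Frzb, Sfrp1, Sfrp2, Sfrp5, Dkk1, Dkk2, Dkk3, Wif1, Axin2 and Lef1, and all 15 probes that carry one of these symbols were taken, of 46643 probes on the Illumina MouseWG-6 v1.1 array. S1Pcko embryos (S1P f/f;Col2-Cre, C57BL/6) lack site-1 protease in cells in which the type II collagen promoter drives Cre, and their WT littermates carried S1P f/f or S1P f/+, the latter with or without Col2-Cre, so that all embryos carried a floxed allele and controls could carry Cre as well. RNA came from the chondroepiphyseal cartilage at the tips of the limb bones (2 arrays per genotype), from entire long bones with their cartilage left on (3 arrays per genotype) and from calvaria, the skull vault (1 array per genotype). Arrays are named here by the number in their title.

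Which embryo stands behind an array limits what follows. Arrays 1927, 1928, 1929 and 1930 carry RNA amplified in a second round, and by their titles 1927 repeats the WT cartilage of 1919, 1928 the S1Pcko cartilage of 1920, and 1929 the WT long bone of 1923. The title of 1930 names S1Pcko long bone without saying whether it repeats 1922 or 1924. The study's legends leave a single embryo per genotype for the cartilage arrays, so within a group these differ by amplification and not by embryo. The fit shares 1 estimate of the spread over the 4 groups of cartilage and long bone. A p-value in cartilage therefore also holds the spread between long bone arrays, and none between cartilage embryos. In long bone the 3 arrays per genotype come from 2 extracts, so p-values there are too small, because an extract amplified again counts as a further sample. The first amplification alone, 1 array per extract, leaves 1 cartilage array per genotype. The member calls were lost in that setting, but so were nearly all calls over all probes, so it does not judge the members.

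Wnt ligands bind Frizzled receptors and LRP co-receptors at the cell surface, which lets beta-catenin accumulate and join TCF/LEF factors on DNA. Secreted frizzled-related proteins (Sfrp1, Sfrp2, Sfrp5 and Frzb) and Wif1 bind the ligands themselves, whereas Dkk1 and Dkk2 occupy the LRP co-receptors. Axin2 and Lef1 are transcribed in response to beta-catenin in many tissues, and Dkk1 is itself a target as well as an inhibitor. In the growing skeleton, strong beta-catenin signalling favours osteoblasts over chondrocytes, and several of these antagonists are made by cartilage or by the tissue around it.

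RefSeq promoter windows of GRCm38.p6 were at hand for 8 of the 10 genes, with Sfrp1 and Dkk3 not among them, and the 250 bases before each start site were searched on both strands for 4 spellings of the TCF/LEF motif, which are CTTTG followed by AA, AT, TA or TT. Of 32851 promoter windows of the mouse genome 14.8% held at least 1 match. The windows of Dkk1 and Wif1 are shown because these genes passed the test of S1Pcko against WT, and that of Lef1 because it held a match. Capitals mark the matches.
Dkk1, chr19:30549497-30549746, minus strand: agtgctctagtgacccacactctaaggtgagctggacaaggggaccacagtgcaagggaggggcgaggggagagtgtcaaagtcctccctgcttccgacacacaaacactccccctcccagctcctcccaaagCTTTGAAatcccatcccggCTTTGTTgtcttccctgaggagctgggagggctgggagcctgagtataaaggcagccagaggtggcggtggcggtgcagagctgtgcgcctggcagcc
Wif1, chr10:121033754-121034003, plus strand: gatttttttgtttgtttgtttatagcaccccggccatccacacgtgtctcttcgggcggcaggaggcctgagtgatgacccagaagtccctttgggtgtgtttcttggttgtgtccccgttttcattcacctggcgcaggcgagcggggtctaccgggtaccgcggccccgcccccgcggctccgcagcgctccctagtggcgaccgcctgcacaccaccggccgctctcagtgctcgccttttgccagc
Lef1, chr3:131156044-131156293, plus strand, a downstream start site: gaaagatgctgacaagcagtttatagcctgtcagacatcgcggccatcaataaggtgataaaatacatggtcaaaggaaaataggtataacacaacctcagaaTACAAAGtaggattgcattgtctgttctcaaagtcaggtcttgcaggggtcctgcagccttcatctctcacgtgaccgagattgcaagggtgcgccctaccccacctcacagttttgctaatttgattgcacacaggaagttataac
Dkk1 held 2 matches, CTTTGAA from 117 to 111 bases and CTTTGTT from 98 to 92 bases before its start site. Of the 4 Lef1 windows, this one held 1 match, CTTTGTA on the opposite strand from 147 to 141 bases before the start. The other windows, those of Frzb, Sfrp2, Sfrp5, Dkk2, Wif1 and Axin2 and the 3 remaining ones of Lef1, held none of the 4 spellings. A match describes the letters of the window and no binding was measured.

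A probe counts as detected where its signal beat the negative controls of its array at a detection p below 0.05, which held for 20555 to 21978 probes on an array. Signals were background-corrected, quantile normalized and put on a log2 scale, on which the dimmest detected probe stood between 4.96 and 5.09. The limma fit took in 23744 probes, those that 2 or more of the 10 arrays of cartilage or long bone detected. A gene is called where its brightest tested probe moved by 2-fold or more with an adjusted p below 0.05, as in the methods of the study. Of the Wnt genes, 9 of 10 genes and 12 of 15 probes entered the test. Mbtps1, which encodes site-1 protease, was read by 2 probes, which differed by -0.22 (SE 0.23, adjusted p = 0.653 from limma) and 0.06 (SE 0.17, adjusted p = 0.892) in S1Pcko cartilage and by -0.18 on both (adjusted p = 0.727 and 0.623) in long bone. Where these probes lie relative to the deleted part is not given in the sources used here, so they do not check the genotype. In cartilage 8 of 9 chondrocyte markers on the array were detected on every array, as were 6 of 7 osteoblast markers. Long bone arrays 1921 and 1922 stood apart from the others of their groups. The summed normalized signal of the chondrocyte markers was 107000 in 1921 against 60300 and 63800 in the other WT long bones, and that of the skeletal muscle markers was 97300 in 1922 against 34200 and 35900 in the other S1Pcko long bones. Macrophage and granulocyte markers summed to 11800 in 1921 against 3360 and 3290, and to 3280 in 1922 against 600 and 639. Array 1922 was also higher in osteoclast (14600 against 7020 and 7350) and epidermis markers (1900 against 400 and 446). In such bulk RNA, fewer cells of a type and less RNA per cell cannot be told apart.

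In S1Pcko cartilage Wif1 fell to 2.05-fold below WT and was the 1 member of 9 tested that was called, beside 2.41% of all probes in this comparison. The genotype groups did not overlap for 5 of the 9 members in cartilage, beside 52.7% of all probes. In long bone Dkk1 fell to 2.06-fold below WT and was the 1 of 9 called, beside 1.26% of all tested genes. There 2 of the 9 did not overlap, beside 18.1% of all probes. The genotype effect on Dkk1 differed between the tissues, again as the 1 of 9 called, beside 0.431% of all tested genes. Frzb and Sfrp1 had lower values in S1Pcko cartilage without passing the adjusted threshold, and no change of Axin2 or Lef1 passed in either tissue.

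**Figure D1:**
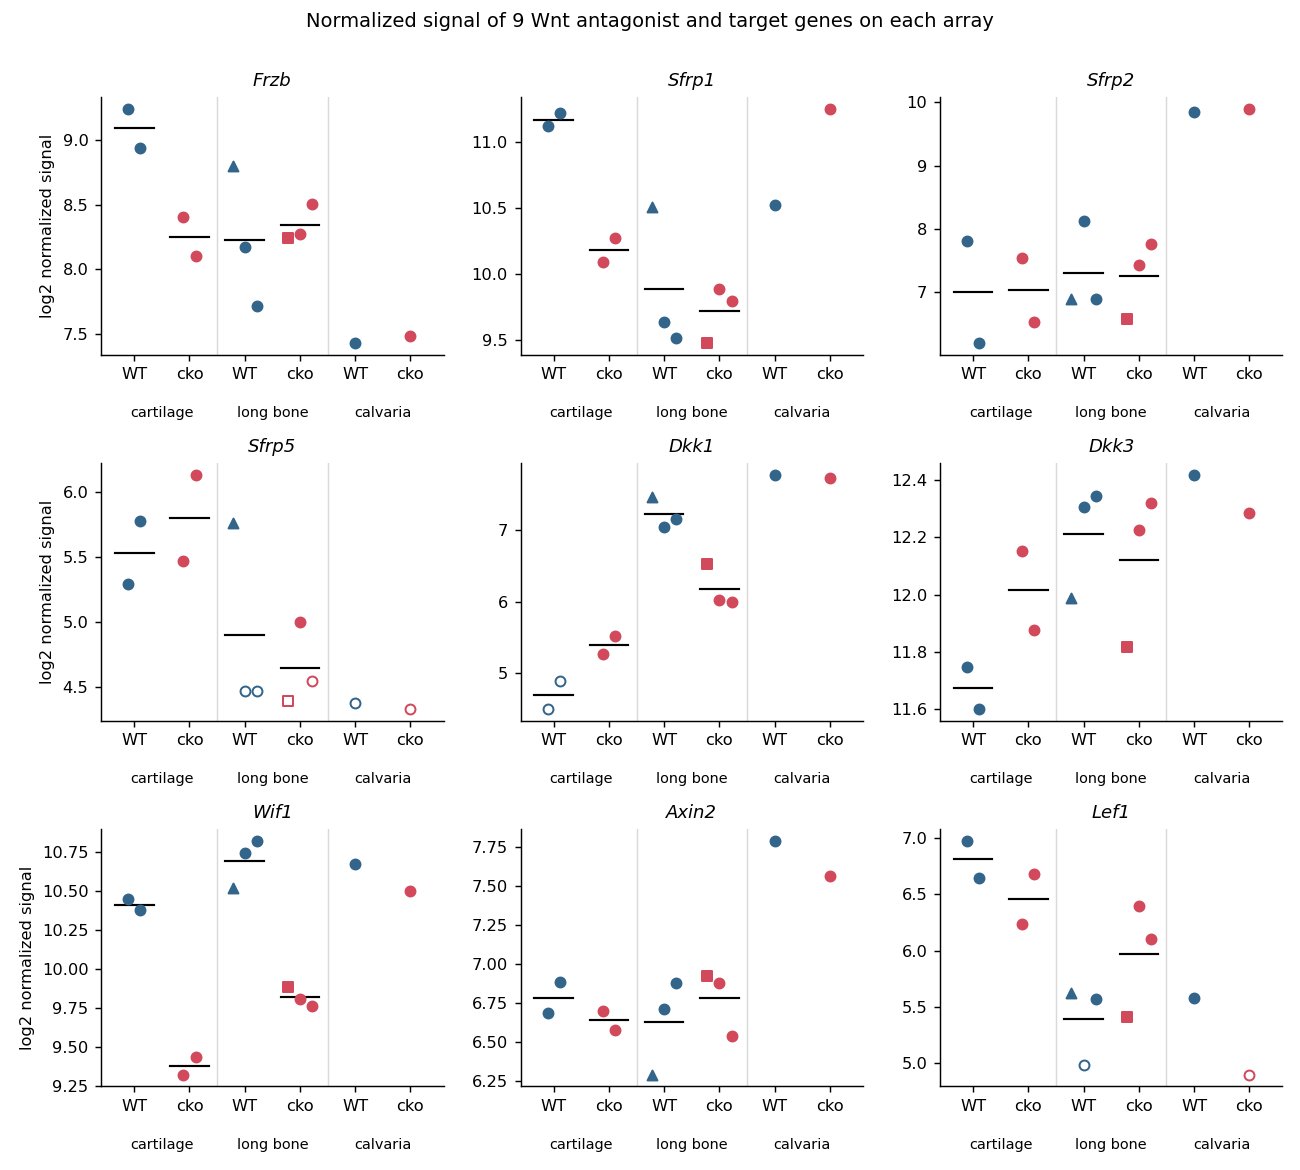
Log2 normalized signal (y axis) of the brightest tested probe of 9 genes on each of 12 arrays, by tissue and genotype (WT blue, S1Pcko, written cko, red), with lines at group means and open symbols where the probe was not detected; triangles are array 1921 and squares array 1922. Both S1Pcko cartilage arrays of Wif1, at 9.32 and 9.43, lie below those of WT at 10.38 and 10.45, and Dkk1 goes from undetected in WT cartilage to between 7.04 and 7.47 in WT long bone.

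Wif1 encodes a secreted protein that binds Wnt ligands. Its log2 signal was 10.45 and 10.38 in WT cartilage and 9.32 and 9.43 in S1Pcko cartilage. Both S1Pcko arrays lay below both WT arrays, and Wif1 fell by 1.03 (SE 0.16, 95% confidence interval -1.38 to -0.69, adjusted p = 0.00401 from limma). In long bone the signal was 10.52, 10.75 and 10.82 in WT (arrays 1921, 1923 and 1929) and 9.88, 9.81 and 9.76 in S1Pcko (arrays 1922, 1924 and 1930). The groups did not overlap there either, and the difference of -0.88 (SE 0.13, 95% confidence interval -1.16 to -0.60, adjusted p = 0.00451) passed the adjusted threshold but stayed under 2-fold. The 2 effects differed by -0.16 (95% confidence interval -0.60 to 0.29, adjusted p = 0.754). Within the first and the second amplification round the difference was -1.12 and -0.94 in cartilage, and in long bone -0.79 and -1.06. In calvaria Wif1 stood at 10.67 in WT and 10.50 in S1Pcko. The size of the cartilage change lies close to the 2-fold threshold, and without array 1919 or array 1920 it was -0.998 (adjusted p = 0.0483) and -0.98 (adjusted p = 0.0425). In S1Pcko cartilage the summed signal of the hypertrophic chondrocyte markers was also lower, at 5850 to 6710 against 10500 to 11500 in WT, and that of the chondrocyte markers was 100000 to 101000 against 119000 to 121000. All 4 hypertrophic markers on the array were detected in both genotypes. The epidermis markers summed to 310 to 349 in S1Pcko and 1180 to 1220 in WT cartilage, with Krt1 and Krt5 detected in neither. Erythroid markers summed to 17500 to 18100 in S1Pcko and 24000 to 25100 in WT, and macrophage and granulocyte markers to 513 to 604 and 991 to 1200. Called lower were 1 of 4 tested hypertrophic and 0 of 8 tested chondrocyte markers, with Mmp13 (0.27) and Col2a1 (0.32) higher in value. Of the other lists given above, 1 of 5 epidermis, 0 of 3 erythroid and 0 of 5 macrophage and granulocyte markers were called lower. Of the joint surface, perichondrium and tendon markers 1 of 5 tested, Fmod, was called lower (-1.63, adjusted p = 0.0142 from limma). In value 2 of these 5 were higher, and their sums were 11900 to 12100 in WT and 11700 to 12400 in S1Pcko. The osteoblast markers overlapped, at 14500 to 24200 in WT and 22600 to 26400 in S1Pcko. Of 7 tested, 5 had higher and 2 had lower values in S1Pcko. Ibsp, a bone matrix protein, was the 1 called (2.08, adjusted p = 0.000515 from limma). The part of these cells in the cartilage values of Wif1 and the other members was not tested.

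Dkk1 encodes a secreted inhibitor of the LRP co-receptors. In WT cartilage it was not detected on either array (4.50 and 4.88), whereas both S1Pcko cartilage arrays detected it, at 5.26 and 5.52. This difference of 0.70 (SE 0.23, 95% confidence interval 0.20 to 1.21, adjusted p = 0.110 from limma) did not pass. As a bound the S1Pcko mean was at least 1.27-fold higher, with the undetected WT arrays set to the dimmest detected signal. Here and below, such a bound allows for the undetected signal alone and not for the spread between arrays. In long bone Dkk1 was at 7.47, 7.04 and 7.15 in WT (1921, 1923 and 1929) and at 6.52, 6.02 and 5.99 in S1Pcko (1922, 1924 and 1930). The groups did not overlap, and Dkk1 fell by 1.04 (SE 0.19, 95% confidence interval -1.45 to -0.63, adjusted p = 0.0156). With the first amplification alone, 2 arrays per genotype, the difference was -0.98 (adjusted p = 0.486). The fitted genotype effect in cartilage minus that in long bone was 1.75 (SE 0.30, adjusted p = 0.0379), and at least 1.38 with the cartilage effect at its bound, with S1Pcko above WT on every cartilage array and below WT on every long bone array. Within the rounds the difference was 0.77 and 0.64 in cartilage and -0.98 and -1.16 in long bone. Calvaria held Dkk1 at 7.78 in WT and 7.73 in S1Pcko.

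The calls on Dkk1 rest on few arrays. The change in long bone was under 2-fold without array 1921 (-0.92, adjusted p = 0.0357), without 1924 (-0.96, adjusted p = 0.0910) and without 1930 (-0.95, adjusted p = 0.0872). The difference between tissues no longer passed when any 1 of 8 arrays was left out (adjusted p from 0.0664 to 0.201), and held without 1921 or without 1922. Osteoclast markers moved in the same comparison, with summed signals between 21700 and 25200 in WT long bone and between 7020 and 14600 in S1Pcko long bone, where 4 of 5 tested osteoclast markers fell and Atp6v0d2 and Calcr were detected in neither genotype. The 14600 was that of array 1922, which also held the highest Dkk1 signal of its group. In cartilage the osteoclast markers summed to 2320 to 2590 in WT and 4050 to 4480 in S1Pcko. The osteoblast markers overlapped in long bone, at 49000 to 57100 in WT and 40800 to 56000 in S1Pcko. Of the erythroid markers 3 of 3 tested fell in long bone (27600 to 28900 in WT, 10800 to 16100 in S1Pcko), and the hypertrophic markers summed to 30000 to 37700 in WT and 17200 to 23200 in S1Pcko, with 1 of 4, Mmp13, lower (-1.42, adjusted p = 0.00222 from limma). The part of these cells in the Dkk1 and other long bone values was not tested.

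The secreted frizzled-related proteins include Frzb, an inhibitor first described in cartilage. Frzb had a log2 signal of 9.24 and 8.94 in WT cartilage and 8.40 and 8.10 in S1Pcko cartilage. Both S1Pcko arrays lay below both WT arrays, and the difference of -0.84 (SE 0.29, 95% confidence interval -1.47 to -0.21) did not pass (adjusted p = 0.127 from limma). In long bone Frzb was at 8.80, 8.17 and 7.72 in WT and at 8.24, 8.27 and 8.50 in S1Pcko, with overlapping groups and a difference of 0.11 (adjusted p = 0.887). Within the amplification rounds the cartilage difference was -0.84 in both, and that in long bone -0.23 and 0.78. The effects of the tissues differed by -0.95 (adjusted p = 0.272). Array 1921, the WT long bone with the highest chondrocyte markers, also held the highest Frzb signal of its group. Without 1921 and 1922 the difference between the effects on Frzb was -1.28 (adjusted p = 0.0285) and was called. This setting raises the calls over all 23744 probes from 81 to 1203 and leaves the WT long bone with 1 extract amplified again. Whether 1924 and 1930, the S1Pcko long bones left, are 1 extract as well is not given by their titles.

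Sfrp1 was measured by 2 probes. On the brighter one, 104060242, WT cartilage was at 11.12 and 11.23 and S1Pcko cartilage at 10.09 and 10.28, and on the other, 6980315, at 10.28 and 10.70 against 9.43 and 9.82. The genotype groups did not overlap on either probe, and the differences of -0.99 (SE 0.29, adjusted p = 0.0752 from limma) and -0.87 (SE 0.28, adjusted p = 0.107) did not pass. In long bone the brighter probe ran from 9.52 to 10.51 in WT and from 9.48 to 9.89 in S1Pcko, a difference of -0.17 (95% confidence interval -0.68 to 0.34). The highest WT value was again that of array 1921. The effects of the tissues on Sfrp1 differed by -0.82 (adjusted p = 0.331), and without array 1921 by -1.13 (adjusted p = 0.0418), which was called where 448 of all probes were, against 81 with it. Calvaria stood at 10.53 in WT and 11.25 in S1Pcko, and the second probe read 10.02 and 10.68 there.

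**Figure D2:**
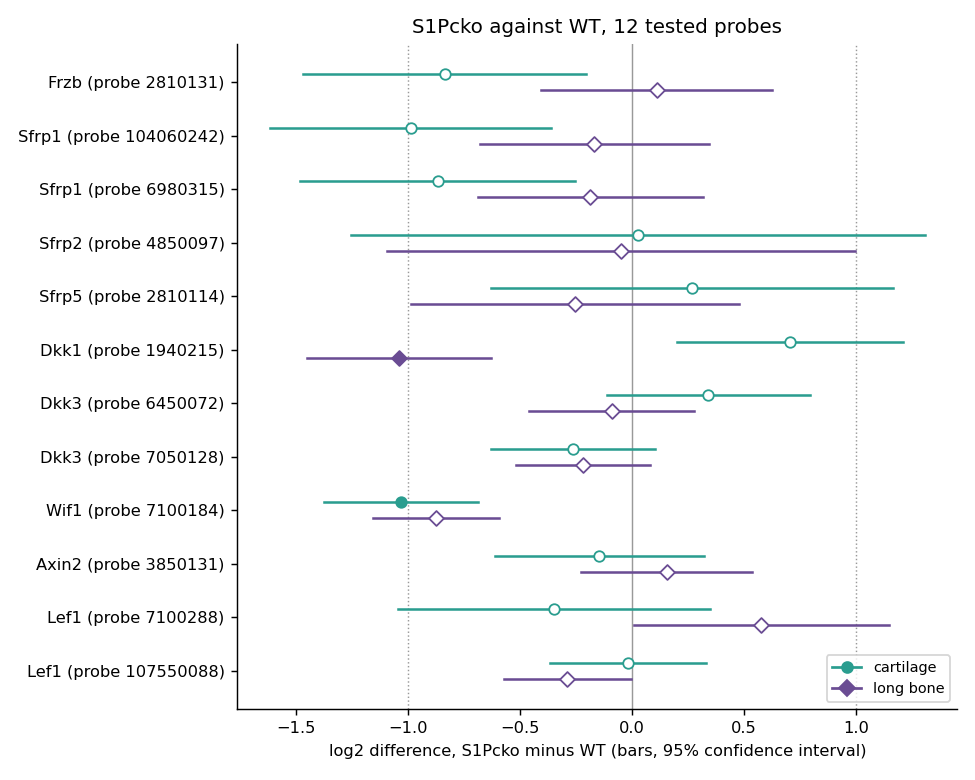
Log2 difference of S1Pcko minus WT (x axis) for the 12 tested probes (rows), in cartilage (circles) and long bone (diamonds), with bars for the 95% confidence interval and filled symbols where the change was called; dotted lines mark 2-fold. Wif1 at -1.03 in cartilage and Dkk1 at -1.04 in long bone are filled, and Dkk1 lies on opposite sides of 0 in the 2 tissues.

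Sfrp2, whose protein is made by many mesenchymal cells, ran from 6.20 to 7.81 in WT cartilage, from 6.52 to 7.54 in S1Pcko cartilage, from 6.89 to 8.13 in WT long bone and from 6.57 to 7.76 in S1Pcko long bone. The groups overlapped in both tissues and the differences were 0.02 (95% confidence interval -1.26 to 1.31) in cartilage and -0.05 (95% confidence interval -1.10 to 1.00) in long bone. In calvaria Sfrp2 was at 9.84 in WT and 9.90 in S1Pcko, above every cartilage and long bone array. Its level also differed between the amplifications of the 3 extracts whose repeat the titles name. Between the first and the second amplification of the same RNA the log2 signal of Sfrp2 dropped by 1.61 in WT cartilage, by 1.01 in S1Pcko cartilage and by 1.24 in WT long bone. The second-round S1Pcko long bone array, 1930, went the other way. It stood at 7.76, above both 1922 at 6.57 and 1924 at 7.43, whichever of them it repeats. Of 23744 tested probes 4 (0.0168%) were lower by 2-fold or more in the second amplification of all 3 extracts, and by the mean over the 3 pairs Sfrp2 was the 4th most negative. No other member probe moved by 2-fold or more in any of the 3 pairs.

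**Figure D3:**
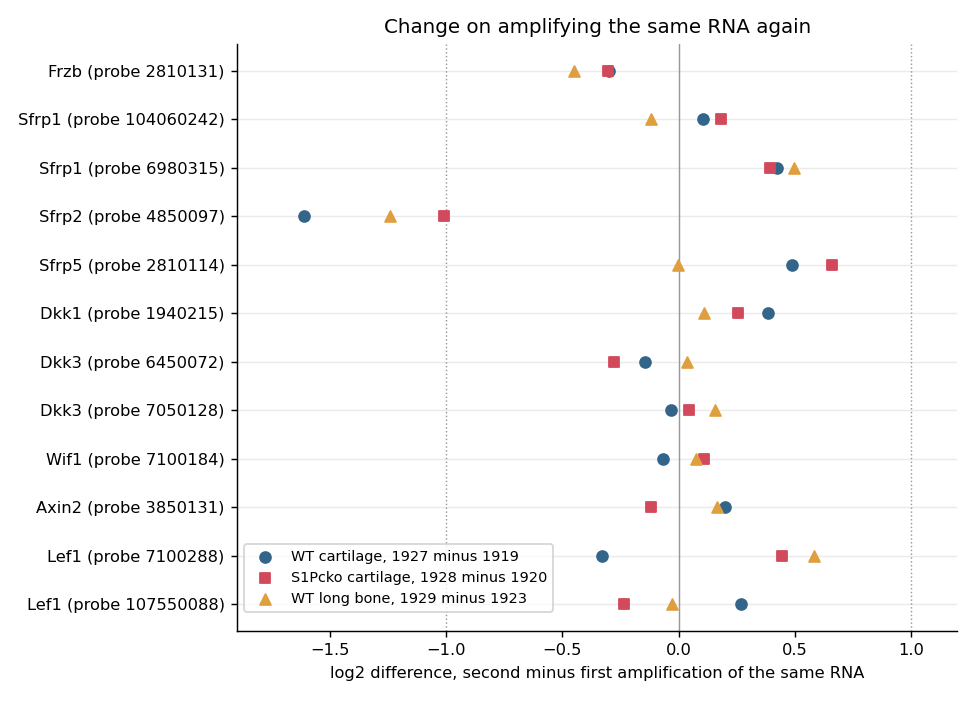
Log2 difference between the second and the first amplification of the same RNA (x axis) for the 12 tested probes (rows) in 3 extracts, with dotted lines at 2-fold. The 3 symbols of Sfrp2 lie between -1.61 and -1.01, and all symbols of the other probes lie within 2-fold.

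Sfrp5 was dim. It was detected on both arrays of WT cartilage (5.29 and 5.77) and of S1Pcko cartilage (5.47 and 6.13), on 1 of 3 long bone arrays of each genotype (1921 at 5.76 and 1924 at 4.998) and in neither calvaria. Its genotype differences were 0.27 (SE 0.41) in cartilage and -0.25 (SE 0.33) in long bone, with adjusted p-values of 0.776 and 0.795 from limma.

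Dkk3, a Dickkopf relative that does not act on LRP co-receptors like Dkk1, was bright on probe 6450072 and ran from 11.60 to 12.42 over all 12 arrays. Its genotype differences were 0.34 (SE 0.21, adjusted p = 0.397 from limma) in cartilage, where S1Pcko at 12.15 and 11.88 lay above WT at 11.75 and 11.60, and -0.09 (SE 0.17, adjusted p = 0.867) in long bone. The second Dkk3 probe, 7050128, lay at the detection limit, between 4.66 and 5.18, and passed no test. Dkk2, an LRP-binding family member, was not detected on any of the 12 arrays, with log2 signals from 4.34 to 4.62, and was not tested. This says only that the signal was not above background.

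Among the target genes, Axin2 encodes a scaffold protein that feeds back to degrade beta-catenin. Its log2 signal was 6.69 and 6.88 in WT cartilage and 6.70 and 6.58 in S1Pcko cartilage. In long bone it ran from 6.29 to 6.88 in WT and from 6.54 to 6.93 in S1Pcko. The groups overlapped in both tissues, and the differences were -0.15 (95% confidence interval -0.61 to 0.32) and 0.15 (95% confidence interval -0.23 to 0.54). Each interval stays within 2-fold, but rests on the same spread as the p-values, so neither can be read as a limit on the difference between embryos. Calvaria had 7.79 in WT and 7.56 in S1Pcko, above all 10 other arrays.

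Lef1 encodes a transcription factor that carries beta-catenin to DNA. Of its 4 probes 2 were never detected. The brighter of the others, 7100288, read 6.98 and 6.65 in WT cartilage and 6.24 and 6.68 in S1Pcko cartilage, and 5.63, 4.99 and 5.57 in WT long bone (1921, 1923 and 1929, not detected on 1923) and 5.41, 6.39 and 6.10 in S1Pcko long bone (1922, 1924 and 1930). The genotype groups overlapped in both tissues, with differences of -0.35 (SE 0.32, adjusted p = 0.599 from limma) and 0.58 (SE 0.26, adjusted p = 0.330). The other probe, 107550088, gave -0.02 in cartilage and -0.29 (adjusted p = 0.331) in long bone, so the 2 probes differ in sign in long bone. Without 1921 and 1922 the effects of the tissues on probe 7100288 differed by -1.32 (adjusted p = 0.0445), which was called as were 1203 of all probes, against -0.93 (adjusted p = 0.324) with them, where 81 were. As for Frzb, the WT long bone is then 1 extract amplified again, and the S1Pcko long bone may be as well. In calvaria the brighter probe was at 5.58 in WT and was not detected in S1Pcko.

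Against WT long bone, WT cartilage was higher in Sfrp1 and Lef1 and lower in Dkk1, so that 3 of 9 members were called, beside 4.83% of all tested genes. The tissues did not overlap for 6 of 9, beside 40.6% of all probes. This comparison shares the WT arrays with those of the genotypes. Dkk1 was at least 4.50-fold lower in cartilage (fitted difference -2.53, SE 0.21, adjusted p = 5.38e-05 from limma). Sfrp1 was 2.43-fold higher on the brighter probe (log2 difference 1.28, SE 0.26, adjusted p = 0.0114) and 2.40-fold higher on the other. Lef1 was 2.67-fold higher on probe 7100288 (1.42, SE 0.29, adjusted p = 0.0115) and lower in value by its other probe (-0.21, adjusted p = 0.409). Frzb differed by 0.86 (SE 0.26, adjusted p = 0.0623), without passing. Within the first and the second amplification round the difference was -2.76 and -2.27 for Dkk1, 1.05 and 1.71 for the brighter Sfrp1 probe and 1.67 and 1.08 for Lef1.

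**Figure D4:**
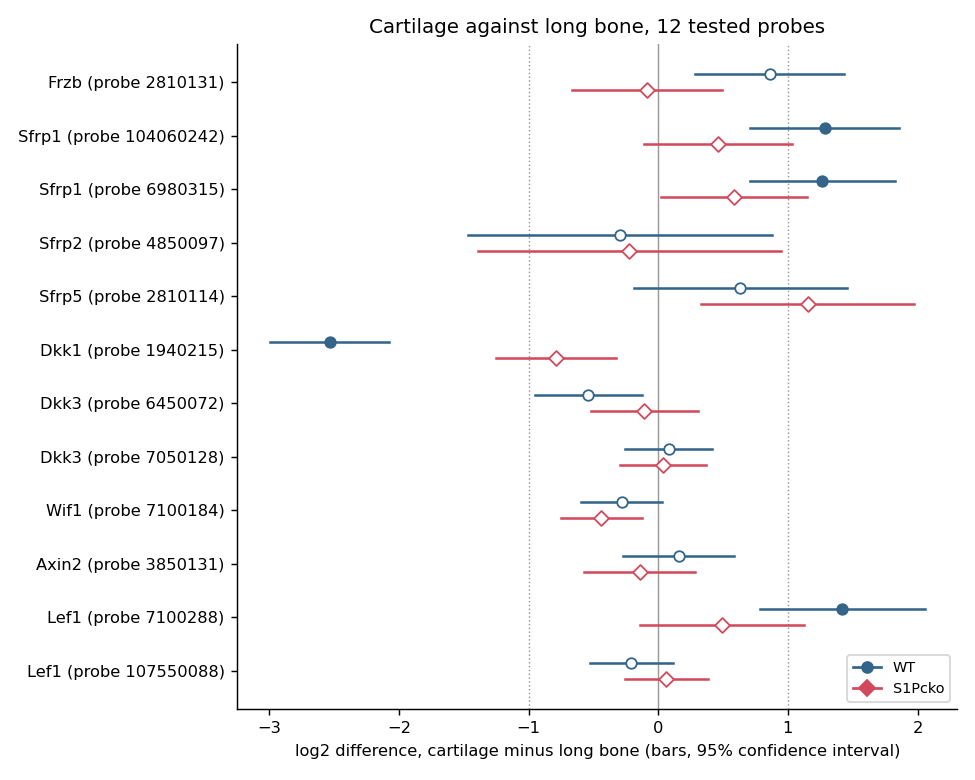
Log2 difference of cartilage minus long bone (x axis) for the 12 tested probes (rows) in WT (circles) and S1Pcko (diamonds), with bars for the 95% confidence interval and filled symbols where the difference was called; dotted lines mark 2-fold. In WT both Sfrp1 probes and 1 Lef1 probe lie above 1 and Dkk1 lies at -2.53, and in S1Pcko no symbol is filled.

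In S1Pcko embryos 0 of 9 members were called between cartilage and long bone by limma and by the same linear model without moderation, beside 0.981% of all probes, and 3 of 9 had an unadjusted p under 0.05, beside 15.5% of all probes. The tissues did not overlap for 4 of 9, beside 36.3% of all probes. The differences of these 3 genes at an unadjusted p under 0.05 were -0.79 (SE 0.21, adjusted p = 0.101) for Dkk1, 1.15 (SE 0.37, adjusted p = 0.169) for Sfrp5 and -0.44 (SE 0.14, adjusted p = 0.169) for Wif1. Whether the tissue difference itself changed with genotype is the same contrast as the difference of the genotype effects, which of the members called Dkk1 alone. Osteoblast markers went with the tissue in both genotypes, at 14500 to 24200 in WT cartilage and 22600 to 26400 in S1Pcko cartilage, and osteoclast markers at 2320 to 2590 and 4050 to 4480, with Acp5, Atp6v0d2, Calcr and Dcstamp not detected in cartilage of either genotype. Of the chondrocyte markers 2 of 8 tested were called higher in WT cartilage than in WT long bone, and 7 of 8 were higher in value (median 0.999). In S1Pcko 0 of 8 were called and 5 of 8 were higher (median 0.151). Of the joint surface, perichondrium and tendon markers 1 of 5, Gdf5 (1.58), was called higher in WT cartilage, and 0 of 5 in S1Pcko. The part of these cells in the tissue differences was not tested. The Sfrp1 call was lost without array 1919 (adjusted p = 0.0674) or 1927 (adjusted p = 0.101), and so was the Lef1 call (adjusted p = 0.105 and 0.0620). Without array 1921, which leaves 1 WT long bone extract amplified again, Frzb (1.14, adjusted p = 0.00556) was called between the WT tissues as well, where calls over all probes went from 950 to 1208. Sfrp5 was then called between the tissues of both genotypes, but was detected on neither remaining WT long bone array and on 1 of 3 S1Pcko ones, so the size of its difference is not given.

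Of 118 other genes of the Wnt pathway, 114 were on the array and 84 were tested, among them ligands, receptors, R-spondins, the destruction complex, TCF factors and targets. In S1Pcko cartilage 1 of 84 rose and 2 fell (3.57%, beside 2.70% of all tested genes), and the median difference was -0.01, beside 0.01 over all genes. The gene that rose was Wnt10b, a ligand known to promote bone formation, at 6.48 and 6.72 in S1Pcko against 5.46 and 5.19 in WT (difference 1.28, SE 0.22, adjusted p = 0.00763 from limma). Ccn2, a matricellular protein needed in cartilage for growth plate development, fell by 1.28 (SE 0.24, adjusted p = 0.0118), from 11.92 and 11.98 to 10.80 and 10.55. Ccn5, a relative of Ccn2, was detected on both WT arrays (5.73 and 5.60) and on neither S1Pcko array, and was at least 1.52-fold lower (adjusted p = 0.0308). Ctnnb1, which encodes beta-catenin, differed by -0.40 (SE 0.17, adjusted p = 0.202). The calls on Wnt10b, Ccn2 and Ccn5 were lost without some of the cartilage arrays, for Wnt10b without 1927 or 1928 (adjusted p = 0.0805 and 0.0842), for Ccn2 without 1919, 1927 or 1928 (adjusted p from 0.0797 to 0.108) and for Ccn5 without any 1 of the 4 (adjusted p from 0.0997 to 0.185).

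In S1Pcko long bone 0 of 84 rose and 1 fell (1.19%, beside 1.26% of all tested genes). Ccn5 was at 6.29, 6.61 and 6.48 in WT and at 5.50, 4.55 and 4.74 in S1Pcko, detected there on 1922 alone, and fell with a fitted difference of -1.53 (SE 0.22, adjusted p = 0.00374 from limma), whose size rests on values not above background on 2 of 3 S1Pcko arrays. Wnt10b ran from 6.30 to 6.96 in WT and from 7.46 to 7.67 in S1Pcko, with no overlap and a difference of 0.97 (SE 0.18, adjusted p = 0.0166) that stayed under 2-fold. Ctnnb1 differed by 0.14 (adjusted p = 0.711). The difference of the genotype effects called 0 of 84 by limma and by the model without moderation, beside 0.431% of all tested genes, with 12 of 84 at an unadjusted p under 0.05, beside 14.8% of all probes.

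Between WT cartilage and WT long bone 1 of 84 was higher and 5 were lower in cartilage (7.14%, beside 4.83% of all tested genes). Fzd9, a Frizzled receptor, was higher by 1.39 (SE 0.20, adjusted p = 0.00167 from limma). The co-receptor relative Lrp4 was lower, with a difference of -1.53 (SE 0.17, adjusted p = 0.000395), as were the TCF co-repressor Tle2 (-1.40, SE 0.21), Wnt10b (-1.28, SE 0.20), the hyaluronan receptor Cd44 (-1.27, SE 0.20) and Ccn4 (-1.17, SE 0.17), all with an adjusted p of 0.00356 or less. Osteoblast markers were lower in the same comparison, as given above. In S1Pcko 0 of 84 were called between the tissues by limma and by the model without moderation, beside 1.06% of all tested genes, with 14 of 84 at an unadjusted p under 0.05, beside 15.5% of all probes.

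**Figure D5:**
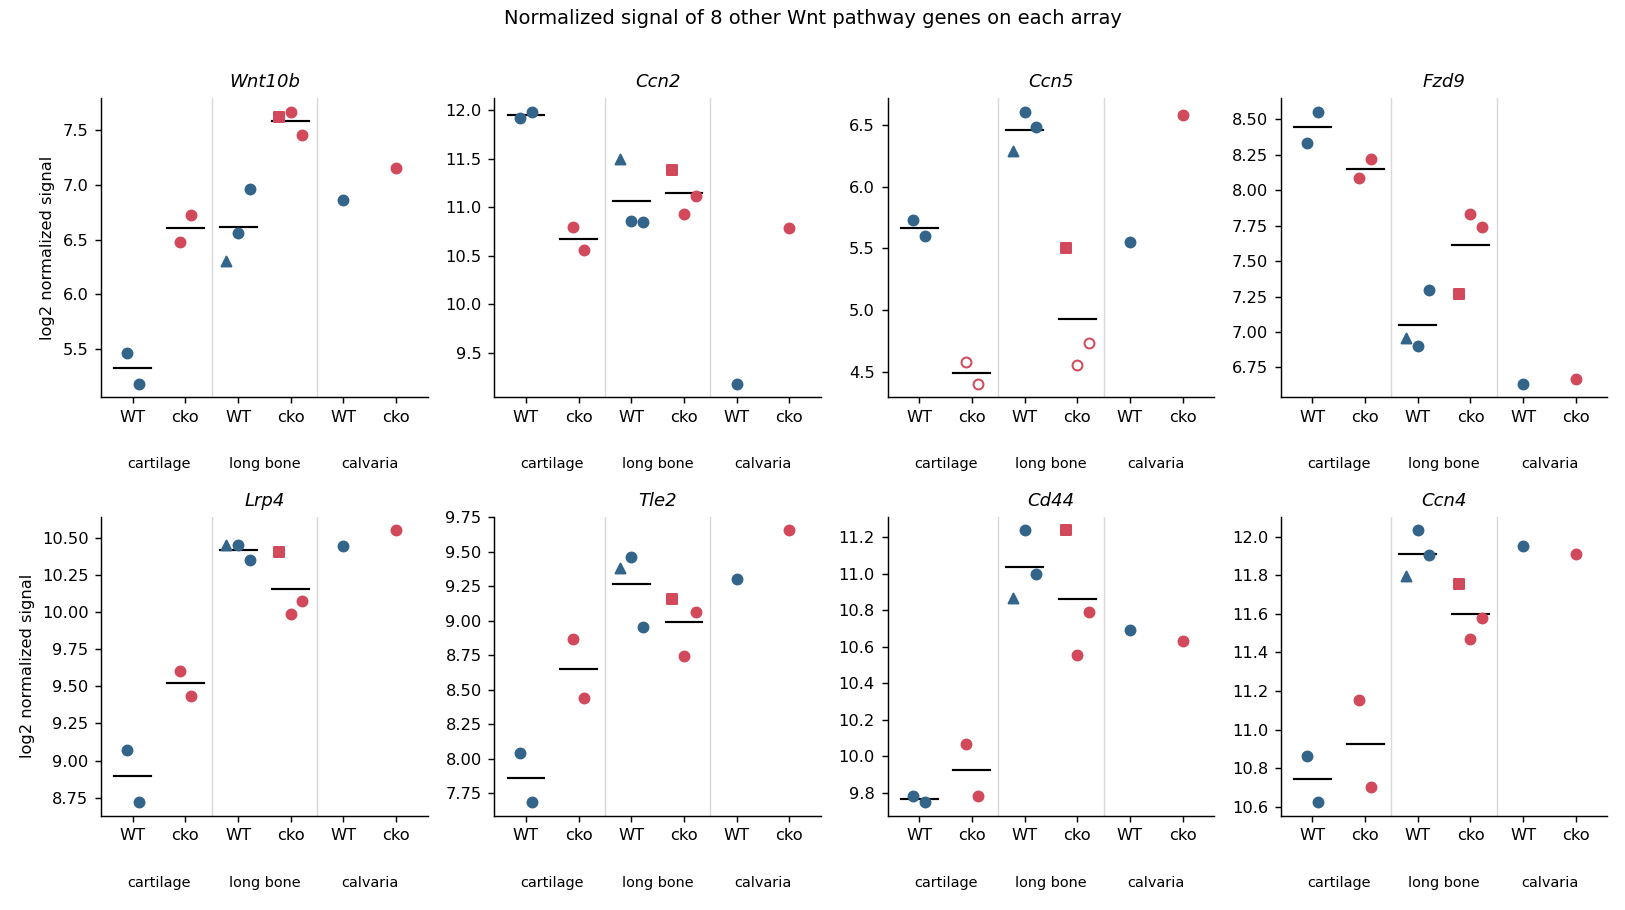
Log2 normalized signal (y axis) of the 8 other Wnt pathway genes called in any comparison, on each of 12 arrays by tissue and genotype (WT blue, S1Pcko, written cko, red), with lines at group means, open symbols where not detected, triangles for array 1921 and squares for 1922. Wnt10b is higher in S1Pcko in cartilage (6.48 and 6.72 against 5.46 and 5.19) and Ccn5 is undetected on both S1Pcko cartilage arrays.

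In calvaria, where the bones form without a cartilage template, 0 of 9 members differed by 2-fold or more between the single WT and the single S1Pcko array, beside 1.18% of all tested probes. The differences that were largest in size were 0.73 for Sfrp1 and -0.68 for Lef1, which was not detected in S1Pcko. With 1 array per genotype these values have no replicate check and were not tested.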

How the data were processed

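RNA was extracted with Trizol and RNeasy columns and hybridized to Illumina arrays. The authors deposited an intensity that was not normalized, and a detection p-value, for each probe and array. A second deposited table of the authors holds intensity after their normalization, on a linear scale with values below 0, and was used as an alternative (raised to at least 1 before log2). The image and bead summary software is not given in the sources used here.

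neqc in limma 3.58.1 under R 4.3.3 removed background from all 12 arrays (offset 16, negative controls inferred from the detection p-values) and quantile normalized them. One limma model held 10 arrays in 4 groups, which leaves 6 residual degrees of freedom, with p-values adjusted by Benjamini-Hochberg over 23744 probes. A probe has its gene name from GEO's platform annotation, which pairs 32794 probes with 1 symbol, 55 with several and 13794 with none. The amplification round, marked in the titles, was fitted as a replicate block in an alternative. Deviations of the first-round cartilage arrays of both genotypes correlated at 0.466 and those of 1929 and 1930 at 0.02, over 23744 probes. Named genes are all member probes, pathway genes past both thresholds (at most 5 in each direction by size), and Ctnnb1. Members and lists were chosen with earlier results of these data known. The number of arrays limits the precision, and nothing says that the long bone extracts came from separate litters.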

Additional observations from a re-analysis of the deposited data

Results flagged for a closer look

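Dkk1 drew attention because its genotype effect differed between tissues, by 1.75 on the log2 scale as fitted (cartilage minus long bone, SE 0.30, adjusted p = 0.0379 from limma over 23744 probes). Since WT cartilage did not detect Dkk1, the difference of the means is at least 1.38 with those arrays set to the dimmest detected signal. This bound leaves out the spread between arrays, and the 95% confidence interval of the fitted difference was 1.095 to 2.398. Both S1Pcko cartilage arrays lay above both WT arrays, and all 3 S1Pcko long bone arrays lay below all 3 WT arrays. Over the alternatives the difference ranged from 0.99 to 4.145, and its adjusted p from 0.00345 to 0.864. The cause was not tested. No group held 4 or more arrays, so single arrays were not screened as outliers.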

How the results depend on the processing

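Of 1256 values of named genes under 23 alternatives, 0 called values turned sign, 76 lost a call, 10 gained one, and 37 turned sign without a call under either setting. The causes were not tested. The first amplification round alone leaves 6 arrays, with 1 cartilage array per genotype that is assumed to vary like the long bones. Member and pathway calls were lost there, but so were nearly all calls over all probes. Without background correction, and with normexp without negative controls, 0 members were called in cartilage, in long bone and in the difference, and 1 pathway gene in cartilage and 0 in long bone. Wif1 in cartilage was then under 2-fold, at -0.97 and -0.98 (adjusted p = 0.00101 and 0.00106 from limma). Dkk1 in long bone was too, at -0.66 and -0.68 (adjusted p = 0.0178 and 0.0175). Dkk1 in the difference did not pass (adjusted p = 0.0574 and 0.0553). Over all probes normexp called 118 higher and 155 lower in cartilage, 72 and 49 in long bone, and 29 and 47 in the difference. Without moderation 1 member was called in cartilage and 1 between the WT tissues, and 0 elsewhere, and 0 pathway genes for genotype in either tissue. The difference of the genotype effects held 0 members with median centring in place of quantiles, with the authors' values and with no filter. Over all probes that difference held 34 higher and 47 lower with median centring, the same as in the main fit. It held 32 with the authors' values and 58 with no filter. Median centring called 2 members in cartilage, adding Sfrp1 (-1.10, adjusted p = 0.0489), and 1 pathway gene between the S1Pcko tissues. Over all probes it called 267 higher and 343 lower in cartilage, against 255 and 317 in the main fit. The authors' values called 0 members and 0 pathway genes in long bone, where 178 of all probes were called. They put 1 member, Lef1, 2-fold apart in calvaria. Over all probes the calls numbered 572 in cartilage, 244 in long bone, 81 in the difference, 950 between the WT tissues and 233 between the S1Pcko tissues, against 258, 113, 74, 420 and 101 without background correction and 277, 101, 20, 545 and 52 without moderation.

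With the replicate block for the amplification round every member call held, at 1 in cartilage, 1 in long bone, 1 in the difference and 3 between the WT tissues, and Dkk1 in the difference had an adjusted p of 0.0488. Over all probes the block called 602, 244, 82 and 951 in these comparisons, against 572, 244, 81 and 950 without it. Leaving out 1 array at a time gave 0 to 1 members in cartilage, 0 to 1 in long bone, 0 to 2 in the difference, 1 to 5 between the WT tissues and 0 to 1 between the S1Pcko tissues. Pathway genes numbered 0 to 4, 1 to 2, 0 to 2, 6 to 9 and 0 to 1. Without array 1921, which gave the highest member counts in the last 3 comparisons, 448, 1208 and 270 of all probes were called in them. Leaving out 1921 and 1922 together was chosen after seeing the data. It leaves 1923, 1929, 1924 and 1930. The first pair is the same RNA, and the title of 1930 does not say whether the second pair is too. In 1930 the summed skeletal muscle markers were 35900, against 34200 in 1924 and 97300 in 1922. Its chondrocyte markers were 96800, against 96800 and 70200. This setting called 1 member in cartilage, 1 in long bone and 4 in the difference (Dkk1, Frzb, Lef1 and Sfrp1). It called 5 between the WT tissues and 0 between the S1Pcko tissues, with 4 and 2 pathway genes in the difference and between the S1Pcko tissues. Over all probes the calls then numbered 712, 721, 1203, 1277 and 375, against 572, 244, 81, 950 and 233.

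A probe at the detection limit, such as those of Dkk1 in WT cartilage, Sfrp5 in long bone and Dkk2, has only a bound.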

Other observations

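Of the 3 pathway genes called in S1Pcko cartilage, 2 went the other way in calvaria. Ccn2 had a log2 signal of 9.18 in WT calvaria and 10.79 in S1Pcko calvaria, and Ccn5 had 5.56 and 6.58. In both the S1Pcko array was the higher one, whereas in cartilage both genes fell. Wnt10b, which rose in cartilage, had 6.86 and 7.15. Pathway genes not called in cartilage were also higher in S1Pcko calvaria, such as Sostdc1 (7.20 and 8.27), Rnf43 (5.29 and 6.35) and Celsr1 (5.52 and 6.71). Of these, Sostdc1 was higher in S1Pcko cartilage too (0.885, SE 0.215, adjusted p = 0.0408 from limma), past the adjusted threshold but under 2-fold. Other pathway genes, such as Tpbg (10.92 and 10.16), were lower in S1Pcko calvaria. Between the calvaria arrays 1.18% of all tested probes were 2-fold or more apart. The difference between the tissues was not tested, with 1 calvaria array per genotype.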
